A study of Mus musculus with 27 samples.

Results

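Hair follicle stem cells (HFSCs) labelled Rxra cKO were compared between all-trans retinoic acid with a protein kinase C inhibitor (atRA+PKCi) and fetal bovine serum (FBS) by RNA-seq. The members are the 4 libraries that the sample labels place in those 2 groups, out of 27 samples in the series and 8 RNA-seq libraries. The cells were sorted from mouse back skin in telogen, the resting phase of the hair cycle, at postnatal day 55, from 2 mice per genotype, and grown as 3D colonies. FBS denotes the serum-containing growth medium. In atRA+PKCi the serum was replaced by the B-27 supplement in DMEM/F12 with cholesterol-cyclodextrin, and all-trans retinoic acid and Go6976, which blocks the conventional protein kinase C isoforms, were added. Calcium and the kinase inhibitor Y-27632 were present in both media. Colonies were first grown in serum medium with EGF or FGF10, which the paper does not list for the atRA+PKCi medium. Serum removal, any withdrawal of EGF or FGF10, the supplement, the cholesterol, the retinoid and the inhibitor therefore changed together. Their shares in any difference cannot be told apart. The Rxra cKO cells carried Sox9-CreER, floxed Rxra alleles and a Rosa26-YFP reporter. Deletion could reach only cells in which the Sox9 promoter had driven CreER. The paper gave tamoxifen before CreER lineage tracing, and does not state the dosing for the mice behind these cultures. The 4 wild-type libraries, from 2 other mice in the same media, served for comparison. Each genotype rests on 2 mice, and the cultures had first been expanded over growth-arrested feeder cells.

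Retinoic acid acts through the nuclear receptors RAR alpha, beta and gamma, which bind DNA as heterodimers with a retinoid X receptor (RXR). Rxra encodes the main RXR of skin epithelium, and Rxrb and Rxrg encode its relatives. RXRs are also the partners of the vitamin D receptor, the PPARs, the oxysterol receptors LXR and the thyroid hormone receptors. HFSCs maintain the hair follicle, and after wounding they enter the epidermis and express genes of epidermal repair. SOX9 is a transcription factor of the HFSC fate and KLF5 of the epidermal fate, and cells that hold both are described as being in lineage plasticity.

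Estimated counts summed to 27579919 and 32120363 in the FBS libraries and to 35879777 and 25150265 in the atRA+PKCi libraries. Levels are given as CPM, counts scaled to a common library size with TMM factors, in the order FBS mouse 1, FBS mouse 2, atRA+PKCi mouse 1 and atRA+PKCi mouse 2. A gene was called when edgeR's quasi-likelihood test gave a Benjamini-Hochberg adjusted p under 0.05 over all 15965 genes tested. CPM are not corrected for transcript length, so levels of different genes are not compared. The keratinocyte marker list summed to 21948, 23841, 24893 and 24811 CPM. The summed HFSC markers were at 91.3, 98.2, 353 and 348 CPM, a difference carried by Krt15 (6.51, 8.23, 251 and 245 CPM), while of 5 markers tested 1 was higher, 1 lower and 3 not called. Lhx2, a defining HFSC factor, lay between 0 and 0.0373 CPM in all 4 libraries. Fibroblast markers summed to 7.34, 9.49, 5.24 and 6.15 CPM with Lum at 0. Immune markers summed to 0.324, 0.324, 1.86 and 1.56 CPM with Tyrobp and Cd3e at 0, melanocyte markers to 0.522 to 0.655 CPM with Dct and Tyr at 0, and sebocyte markers to 0.421 to 0.791 CPM. Endothelial markers summed to 2.91, 4.21, 2.28 and 2.12 CPM, and Merkel cell markers to 3.24, 4.15, 0.471 and 0.41 CPM with Atoh1 at 0. The part of these other cell types in the results below was not tested. In bulk RNA, fewer cells of a type and less RNA per cell cannot be told apart.

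Rxra (ENSMUSG00000015846, chromosome 2, 27676440 to 27762957, plus strand, GRCm38) was still counted in the cells labelled Rxra cKO, at 97.2, 95.7, 148 and 145 CPM. Wild-type means were 136 CPM in FBS and 145 CPM in atRA+PKCi. The total over the gene includes transcripts that lack the floxed exons, so it does not check the deletion, and the label is taken as given. Within the cKO the total rose 1.52-fold in atRA+PKCi (log2 fold change 0.60, SE 0.092, edgeR adjusted p = 0.000871), with no overlap between the media.

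In Rxra cKO HFSCs, 3319 genes were higher (20.8% of those tested) and 3542 were lower (22.2%) in atRA+PKCi than in FBS, together 6861 genes or 43.0%. Of these, 1127 and 1253 changed over 2-fold, and 160 and 286 over 8-fold. The median log2 fold change of all genes tested was 0.02, and the median SE was 0.13. Groups of 2 libraries that did not overlap were common, at 38.5% of genes higher and 36.7% lower, so a lack of overlap alone says little. Where it is given for called genes, it describes their values and adds no evidence to the call. Among all 443 called genes in the text and in the lists below, 338 kept the call when each of the 8 libraries was left out in turn, and no gene changed sign. Genes whose call was lost in that way are named as such. List counts below are to be read against the 20.8% higher and 22.2% lower of all genes.

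**Figure D1:**
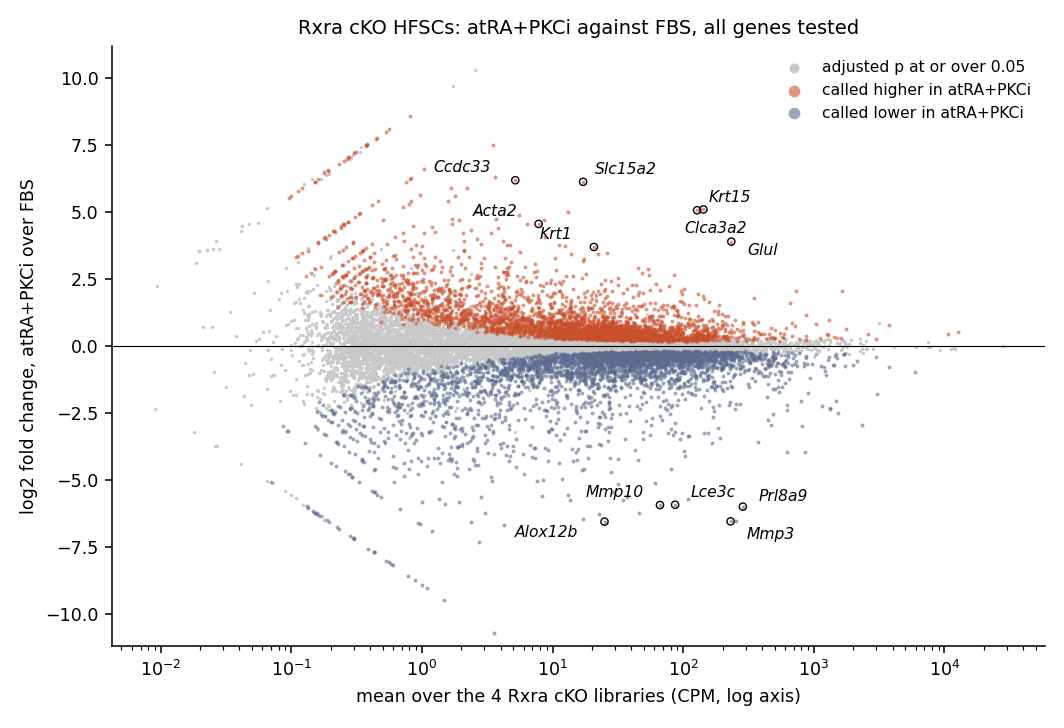
Each point is a gene tested, with its mean CPM over the 4 Rxra cKO libraries on a logarithmic horizontal axis and its log2 fold change, atRA+PKCi over FBS, on the vertical axis. Colored points are the 3319 higher and 3542 lower genes, labelled genes are described in the text, and the slanted streaks at low CPM are genes with few or no counts in either medium.

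Among genes averaging at least 5 CPM over the 4 libraries, the largest increase was in Ccdc33. Ccdc33 stood at 0.144 and 0.13 CPM in FBS and at 11.3 and 9.13 CPM in atRA+PKCi. Slc15a2, a peptide transporter of the proton-coupled family, went from 0.468 and 0.486 to 33.8 and 33.7 CPM, a 70.8-fold difference (log2 fold change 6.13, SE 0.13, edgeR adjusted p = 3.37e-08). The libraries of each medium lay close together and the media far apart for each gene. Clca3a2, of the calcium-activated chloride channel regulator family, was at 8.13 and 7.97 CPM in FBS and at 280 and 274 CPM in atRA+PKCi. Krt15, the keratin that marks bulge stem cells, was at 6.51 and 8.23 CPM in FBS and at 251 and 245 CPM in atRA+PKCi, 33.7-fold higher (log2 fold change 5.07, SE 0.14, adjusted p = 8.72e-08). All 4 genes were picked among called genes whose media did not overlap, so that separation follows from the choice.

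Another 8 genes made up the 12 largest increases among these genes. Plekhs1 rose with a log2 fold change of 5.01, Krt79, a keratin of the follicle's infundibulum and sebaceous duct, with 4.90, and Itgb8, the integrin chain that activates latent TGF-beta, with 4.72. Steap4, a metalloreductase, reached 4.57, Acta2, smooth muscle actin, 4.56 and Wisp1, a WNT-induced matrix protein, 4.06. Glul, glutamine synthetase, went from 30.6 and 28.0 to 450 and 425 CPM, and Fgf1, a fibroblast growth factor, from 1.58 and 1.49 to 20.6 and 21.3 CPM. For Acta2 the 4 levels were 0.647, 0.615, 14.8 and 15.2 CPM. Myl9, a myosin light chain of smooth muscle, had no count in either FBS library and 104 counts in atRA+PKCi, at 1.49 and 1.75 CPM. Against 3 counts over the FBS group it was at least 31.3-fold higher.

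The largest decreases were in matrix metalloproteinases, cornified envelope genes and prolactin family genes. Mmp3, Mmp10, Mmp13 and Mmp1b, neighbours on chromosome 9 that encode matrix-degrading enzymes, were among the 12. Mmp3 was at 413 and 499 CPM in FBS and at 4.82 and 4.95 CPM in atRA+PKCi, 93.3-fold lower (log2 fold change -6.54, SE 0.13, edgeR adjusted p = 3.37e-08). Mmp13 was at 442 and 555 against 5.40 and 5.51 CPM, and Mmp10 at 120 and 141 against 2.15 and 2.12 CPM. Mmp1b was at 35.0 and 33.1 against 0.445 and 0.298 CPM. A lack of overlap was part of the rule that picked these genes, so it is no further evidence for them. Alox12b, the lipoxygenase that oxidizes barrier ceramides, had the lowest log2 fold change, -6.55, with 42.4 and 56.4 against 0.55 and 0.484 CPM. Lce3b, Lce3c, Lce3d and Lce3e, late cornified envelope genes, had log2 fold changes of -5.73, -5.92, -6.21 and -5.76. Prl8a1 and Prl8a9, prolactin family genes, had -6.28 and -5.99, and 2310046K23Rik had -5.69. The Lce3, Prl and Mmp1 genes have close relatives, between which the estimated counts may be divided with error.

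The promoters of the metalloproteinases are shown because the 4 genes fell together and their first 250 bases upstream each hold an AP-1 site. AP-1 is the dimer of FOS and JUN proteins. RefSeq windows of GRCm38.p6 were searched on both strands for TGAGTCA, whose reverse complement is TGACTCA, and 1466 of 32851 windows (4.46%) held it. The 4 metalloproteinases made up the 4 of 11 matched genes among the 12 largest decreases that held the site. None of 10 windows of the 12 largest increases did, too few windows to show a difference from the share of all windows. Of epidermal differentiation genes, 6 of 30 windows (20.0%) held it. The site was chosen after the values had been seen, and a match is a description of letters. Below are the 100 bases before the start site, 5′ to 3′ on the coding strand, with the site in capitals, 46, 63 and 35 bases before the start. Mmp3 lies at chr9:7445722-7445821, Mmp10 at chr9:7502242-7502341 and Mmp13 at chr9:7272414-7272513, all on the plus strand and outside exons of GENCODE M21.
Mmp3: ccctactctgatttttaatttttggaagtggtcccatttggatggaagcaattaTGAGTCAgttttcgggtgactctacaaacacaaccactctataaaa
Mmp10: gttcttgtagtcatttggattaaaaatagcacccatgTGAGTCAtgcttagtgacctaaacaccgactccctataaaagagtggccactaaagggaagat
Mmp13: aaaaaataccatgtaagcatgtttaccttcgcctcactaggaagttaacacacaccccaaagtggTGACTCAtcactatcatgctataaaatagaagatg

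Of the retinoid receptors, 3 of 5 tested rose and none fell, with a median log2 fold change of 0.59. Rxrg did not pass the filter on low counts. Rxrb was at 29.0, 30.7, 46.1 and 43.7 CPM (log2 fold change 0.59, SE 0.078, edgeR adjusted p = 0.000402), so its rise was about as large as that of the Rxra total. Rara was at 11.1, 10.6, 15.8 and 15.8 CPM (0.54, adjusted p = 0.0131), but the call was lost without FBS replicate 2 or without either atRA+PKCi library. Rarg, the main RAR of epidermal cells, was at 78.4, 74.4, 84.9 and 87.5 CPM and was not called (0.17, SE 0.1, adjusted p = 0.208). Rarb, a classical retinoic acid target, was low at 0.18, 0.194, 0.812 and 0.41 CPM and just missed the threshold (1.71, SE 0.61, adjusted p = 0.0509). Its RefSeq window holds the direct repeat with a 5-base spacer that RAR and RXR bind, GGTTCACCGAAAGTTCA, at chr14:16575513-16575529 on the minus strand, 53 bases before the RefSeq start and within the 5′ UTR of longer transcripts in GENCODE M21. Only 29 of 32851 windows (0.0883%) hold this element within 250 bases of the start.

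The genes that respond to, carry or convert retinoids moved in both directions, with 6 of 17 tested higher and 6 lower (35.3% each, against 20.8% and 22.2% of all genes). Dhrs3, the retinaldehyde reductase that retinoic acid induces, was at 11.9 and 13.3 CPM in FBS and at 83.8 and 84.9 CPM in atRA+PKCi, 6.71-fold higher (log2 fold change 2.74, SE 0.093, edgeR adjusted p = 2.93e-07). Stra6, the receptor that takes up retinol, was at 63.2, 68.4, 225 and 218 CPM (1.75, adjusted p = 1.82e-06). Both genes were higher without overlap between the media, as were 38.5% of all genes. Tgm2, a transglutaminase used as a retinoid readout, was at 21.0, 20.7, 57.4 and 53.4 CPM. Nrip1, a corepressor recruited by liganded nuclear receptors, rose only from 126 and 121 to 164 and 158 CPM. Cyp26b1, which degrades retinoic acid and is usually induced by it, was at 14.8, 16, 14.7 and 13 CPM and was not called (-0.15, SE 0.13, adjusted p = 0.394). Cyp26a1 and Cyp26c1 were too low to test.

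Of the lower members, Aldh1a3, which makes retinoic acid from retinaldehyde, fell from 297 and 364 to 41.7 and 38.3 CPM, 8.26-fold. Rdh11, a retinal reductase, fell from 80.4 and 82.8 to 51.1 and 47.7 CPM, and Crabp2, which carries retinoic acid to the receptors, from 79.1 and 99.6 to 56.8 and 53.5 CPM. Rarres1 fell from 1.55 and 2.69 to 0.288 and 0.298 CPM. Each of these 4 genes was lower in both atRA+PKCi libraries than in either FBS library, as were 36.7% of all genes. Aldh1a1, at 0.108, 0.162, 0.445 and 0.41 CPM, and Crabp1, at 1.87, 1.98, 1.02 and 0.894 CPM, were called, but neither call was kept when a cKO library was left out, nor with the replicate block (adjusted p = 0.0665 and 0.0592). The call of Dgat1, which esterifies retinol and fats and was at 18.0, 16.9, 13.6 and 13.5 CPM, was lost without FBS replicate 1 or either atRA+PKCi library. Lrat, Rdh10 and Bco1 were not called.

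**Figure D2:**
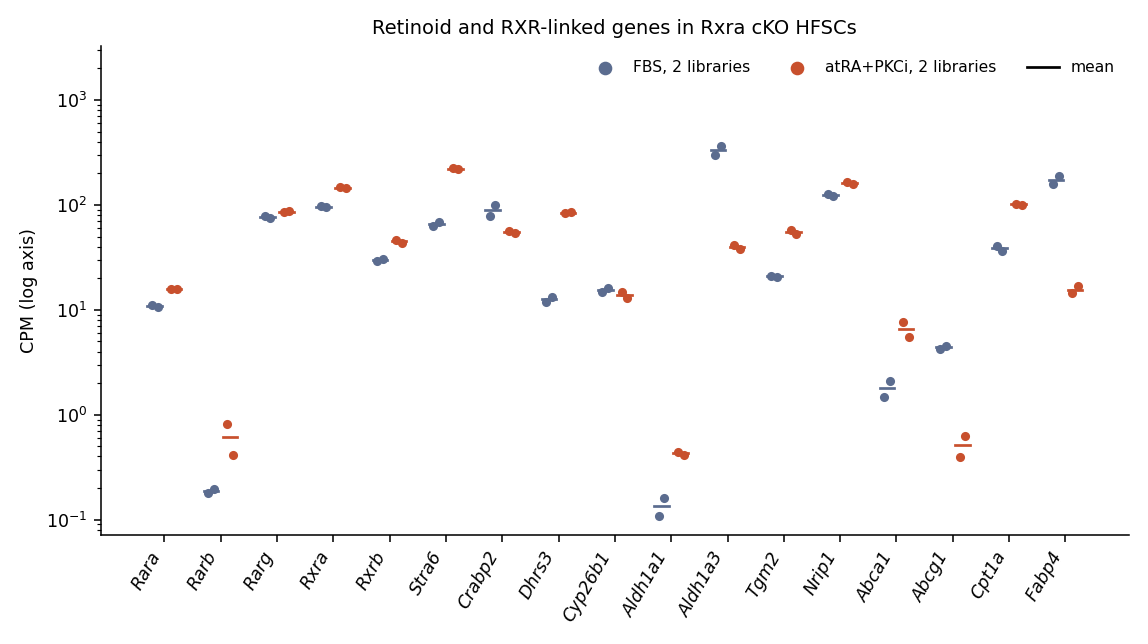
Levels in CPM on a logarithmic axis of 17 retinoid and RXR-linked genes in the 2 FBS and 2 atRA+PKCi libraries of Rxra cKO HFSCs, with bars at the means; heights are not comparable between genes. Dhrs3, Stra6 and Tgm2 sit higher in atRA+PKCi, Aldh1a3, Abcg1 and Fabp4 sit lower, and the points of Cyp26b1 lie close together.

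Of the other receptors that pair with RXR, 2 of 11 tested were higher and 3 lower (18.2% and 27.3%), close to the 20.8% and 22.2% of all genes. Ppard, the PPAR of keratinocytes, fell from 162 and 158 to 80.7 and 84.3 CPM (log2 fold change -0.96, SE 0.13, edgeR adjusted p = 0.000458). Nr4a1, an orphan receptor of the immediate early class, rose from 10.4 and 11.9 to 23.4 and 22 CPM, whereas its relative Nr4a2 fell from 3.81 and 3.34 to 1.34 and 1.12 CPM. Thra, a thyroid hormone receptor, rose from 20.0 and 19.9 to 26.7 and 30.2 CPM, and Nr1h4, the bile acid receptor, fell from 1.01 and 1.43 to 0.0786 and 0.261 CPM. The vitamin D receptor Vdr was not called, at 75.7, 74.5, 67.5 and 66.1 CPM. Of its 3 tested targets, Trpv6, a calcium channel, was higher (log2 fold change 3.56) and Spp1, osteopontin, was lower (-0.64).

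Among targets of the LXR receptors, which sense oxysterols, 6 of 10 tested were higher and 2 lower, with a median log2 fold change of 0.81. Pltp, phospholipid transfer protein, rose from 14.5 and 14.9 to 71.8 and 72.4 CPM (2.29, SE 0.086, edgeR adjusted p = 3.97e-07). Abca1, the cholesterol exporter, rose from 1.47 and 2.11 to 7.67 and 5.51 CPM, and Mylip, which marks the LDL receptor for degradation, from 4.32 and 5.18 to 13.9 and 14.5 CPM. The desaturase genes Scd1 and Scd2 rose by 0.72 and 0.91 on the log2 scale. Abcg1, a second cholesterol exporter, went the other way, from 4.21 and 4.57 to 0.393 and 0.633 CPM. The call of Lpcat3, the other lower member, was lost without FBS replicate 2 or either atRA+PKCi library. Cholesterol-cyclodextrin was added to the atRA+PKCi medium, and its part in the levels of these genes and of those below was not tested. Genes of cholesterol synthesis and uptake were lower in 15 of 24 and higher in none, but modestly, with a median of -0.33. Pmvk, Msmo1 and Lss, enzymes of the mevalonate and sterol steps, had log2 fold changes of -0.95, -0.81 and -0.76. This count depended on single libraries, and it was 7 to 11 when a cKO library was left out.

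Of PPAR targets, 6 of 16 tested were higher and 5 lower (37.5% and 31.2%, against 20.8% and 22.2% of all genes). Fewer were lower without FBS replicate 2 or either atRA+PKCi library. Fabp4, a fatty acid carrier, fell from 157 and 190 to 14.5 and 16.7 CPM (log2 fold change -3.48, edgeR adjusted p = 7.95e-07), and Creb3l3, a membrane-bound transcription factor of lipid metabolism, from 3.16 and 3.30 to 0.131 and 0.224 CPM. Cpt1a, the carnitine transferase that admits fatty acids to mitochondria, rose from 40.9 and 36.7 to 103 and 100 CPM. Vnn1, pantetheinase, rose from 1.69 and 2.04 to 13.2 and 13.2 CPM, and Acot1, an acyl-CoA thioesterase with near-identical relatives, from 4.21 and 3.92 to 16.3 and 16 CPM. Among fatty acid synthesis genes, 5 of 16 tested were higher and 6 lower, and 3 were higher without FBS replicate 2 or either atRA+PKCi library. Elongases were among the lower members, with Elovl4, which makes very long barrier fatty acids, falling from 213 and 239 to 49.3 and 41.6 CPM, and Elovl7 and Elovl1 at log2 fold changes of -1.56 and -1.4.

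Genes of mitosis fell together. Of 28 tested, 27 were lower (96.4%, against 22.2% of all genes) and none was higher, with a median log2 fold change of -1.12. Bub1, a spindle checkpoint kinase, was at 44.2 and 42.1 CPM in FBS and at 16 and 14.3 CPM in atRA+PKCi (log2 fold change -1.50, SE 0.079, edgeR adjusted p = 2e-06). Anln, a cytokinesis protein, was at 96.9, 88.4, 31.6 and 36.2 CPM, and Ccnb1, a cyclin that drives entry into mitosis, at 76.3, 69.4, 26.5 and 27.2 CPM. For these genes both FBS libraries lay above both atRA+PKCi libraries, as for 36.7% of all genes. Cdk1, the kinase that cyclin B activates, fell 2.64-fold, Ttk, a kinase of the spindle checkpoint, 2.70-fold and Top2a, which untangles chromosomes, 2.27-fold. Mki67, a marker of proliferating cells, was at 184, 162, 77.1 and 78.3 CPM. Bub3 was the member not called (-0.12, adjusted p = 0.199). Leaving out single libraries left 26 or 27 members lower.

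The list of DNA replication genes was also lower in 26 of 32 and higher in none, with a smaller median of -0.60. Gins1, of the replicative helicase, fell from 10.4 and 12.4 to 3.88 and 4.99 CPM, Ccne2, cyclin E2, from 16.3 and 15.2 to 6.26 and 6.52 CPM, and Tk1, thymidine kinase, from 44.5 and 42.1 to 20.3 and 20.4 CPM. Pcna, the polymerase clamp, fell 1.73-fold and Mcm5, a helicase subunit, 1.66-fold, while Mcm2 and Mcm7 were not called (-0.19 and 0.04). The count was 16 without FBS replicate 1 and 17 without atRA+PKCi replicate 1. Among cell cycle inhibitors, 7 of 14 were higher and 2 lower. Btg2, an antiproliferative factor, rose from 72.1 and 80.0 to 242 and 235 CPM. Cdkn2b, the CDK4 inhibitor p15, rose from 32.7 and 33.3 to 84.6 and 89.1 CPM and Cdkn1c, the inhibitor p57, from 8.63 and 9.33 to 22.5 and 24.3 CPM. Cdkn1a, which encodes p21, rose 1.49-fold and Cdkn2a 1.68-fold, whereas Cdkn1b, p27, was not called (-0.10). Of the 2 lower members, the call of Btg1 was lost without atRA+PKCi replicate 2, and that of Ccng2 held without each library.

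Promoters of 4 mitosis genes are shown because CCAAT boxes, the sites of the factor NF-Y, recur in this list. CCAAT or its reverse complement ATTGG was found within 250 bases of the start in 22 of 25 windows of mitosis genes (88.0%), against 11120 of 32851 windows overall (33.8%) and 10 of 30 windows of epidermal differentiation genes (33.3%). Of the 28 mitosis genes, 23 had a window and 20 held a match. The motif was picked with the values known, and no binding was measured. The 100 bases before the RefSeq start (GRCm38.p6) are given on the coding strand with the boxes in capitals. Top2a lies at chr11:99024190-99024289, Ccnb2, a cyclin of mitosis, at chr9:70421555-70421654, Hmmr, a spindle protein, at chr11:40733438-40733537, all on the minus strand, and Ttk at chr9:83834589-83834688 on the plus strand.
Top2a: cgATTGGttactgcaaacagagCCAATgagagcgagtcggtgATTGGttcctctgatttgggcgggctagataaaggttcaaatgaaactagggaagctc
Ccnb2: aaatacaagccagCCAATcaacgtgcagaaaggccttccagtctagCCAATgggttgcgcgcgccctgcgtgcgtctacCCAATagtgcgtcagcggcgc
Ttk: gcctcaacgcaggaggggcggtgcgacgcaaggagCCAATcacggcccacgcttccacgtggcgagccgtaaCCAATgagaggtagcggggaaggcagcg
Hmmr: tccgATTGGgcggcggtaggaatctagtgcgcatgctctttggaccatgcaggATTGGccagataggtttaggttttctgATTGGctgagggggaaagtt
Top2a, Ccnb2 and Hmmr carry 3 boxes and Ttk 2 in these stretches. In the libraries, Ccnb2 fell 2.17-fold, from 35.8 and 36 to 16.4 and 16.7 CPM, and Hmmr 2.01-fold, from 59.7 and 63.2 to 30.9 and 30.1 CPM.

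**Figure D3:**
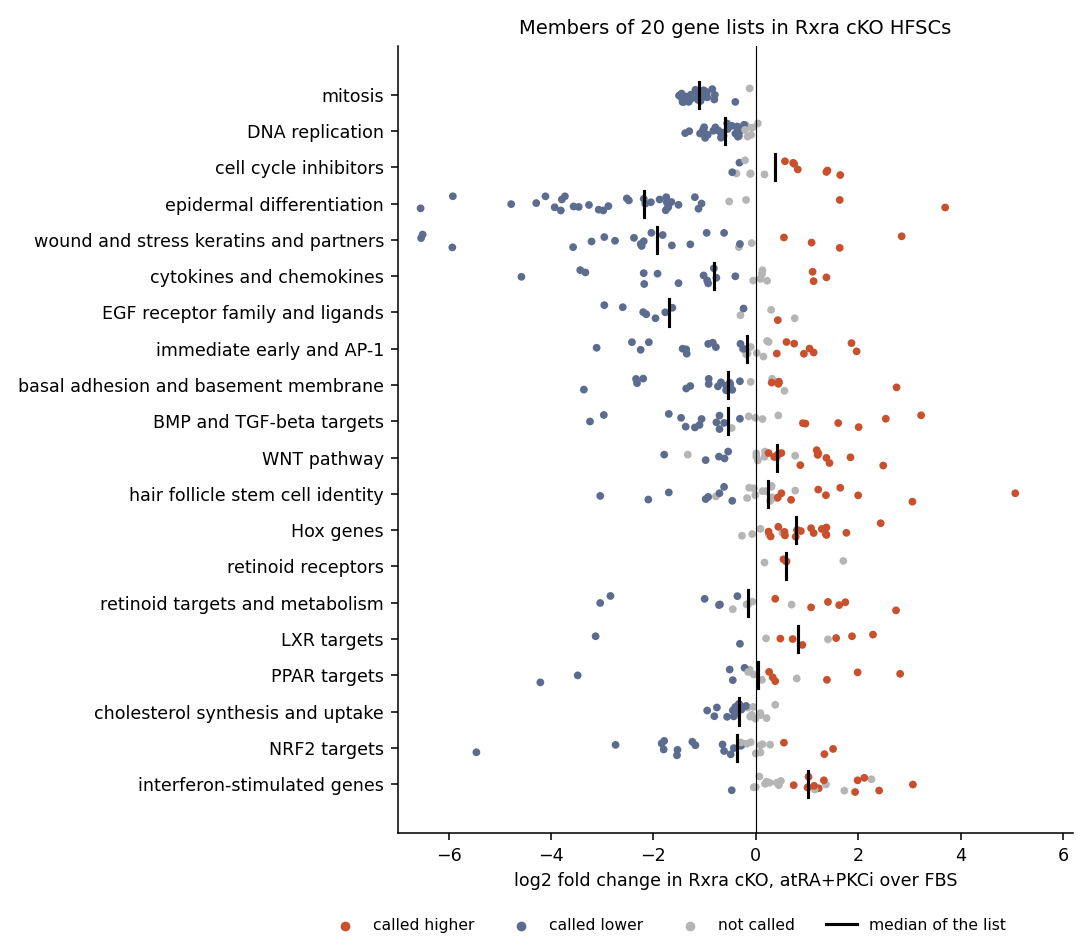
Log2 fold changes, atRA+PKCi over FBS, of the tested members of 20 gene lists in Rxra cKO HFSCs, with 1 point per gene and a black bar at each list's median. The mitosis points form a narrow band around -1.12, the epidermal differentiation points spread below 0 with 2 higher members, and the Hox points lie mostly above 0 around 0.79.

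Genes of epidermal differentiation fell in 31 of 35 tested (88.6%), with a median log2 fold change of -2.19. Klk5, a protease of the cornified layer, was at 10.1, 13.1, 0.34 and 0.522 CPM, 26.9-fold lower (log2 fold change -4.78, SE 0.23, edgeR adjusted p = 3.75e-06). Lce3c, named above, was at 145, 196, 2.70 and 2.98 CPM. Flg, filaggrin, fell 11.0-fold, from 83.5 and 95.4 to 8.01 and 8.31 CPM, and Cnfn, cornifelin, 17.3-fold, from 164 and 224 to 11.5 and 10.9 CPM. Ivl, involucrin, which early differentiating cells already make, fell less, from 420 and 506 to 197 and 210 CPM. Tgm1 and Tgm3, the transglutaminases that crosslink the envelope, fell 4.54-fold and 13.4-fold, and Sprr1a and Sprr2d, small proline-rich envelope proteins with close relatives, 7.90-fold and 4.47-fold. All members that fell were lower in both atRA+PKCi libraries than in either FBS library. They had already been called, and 36.7% of all genes tested were lower without overlap. The count of 31 was the same when any library was left out.

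The 2 members that rose were Krt1 and Krt10, the keratin pair of the spinous layer. Krt1 was at 3.02 and 2.88 CPM in FBS and at 43.4 and 33.5 CPM in atRA+PKCi, 13-fold higher (log2 fold change 3.70, SE 0.30, edgeR adjusted p = 2.2e-05). Krt10 was at 8.59, 8.36, 29.8 and 22.9 CPM (1.64, SE 0.14, adjusted p = 3.61e-05). Both were low in the 2 FBS cultures and higher in the 2 atRA+PKCi cultures, opposite to the rest of the list. Dsg1a and Sprr3 were not called. Tchh, trichohyalin, a protein of the inner root sheath, also rose, from 17.3 and 21.8 to 38.3 and 37.4 CPM.

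Of the wound and stress list, which holds keratins of wounded skin and their partners, 18 of 24 tested genes were lower and 4 higher. Krt6b was at 1698, 2121, 440 and 375 CPM (log2 fold change -2.23, edgeR adjusted p = 2.71e-06) and its partner Krt16 at 2193, 2587, 621 and 538 CPM (-2.04). Krt6a fell less, from 7504 and 8171 to 4123 and 3914 CPM, and Krt6a and Krt6b share long stretches of sequence. Krt80 fell 6.74-fold. Krt17 was not called, at 1731, 1983, 1500 and 1460 CPM (-0.33, adjusted p = 0.0535). Keratins of simple epithelia moved both ways. Krt7 rose from 2.52 and 2.62 to 18.0 and 19.1 CPM, Krt19 from 2.01 and 4.31 to 9.38 and 10.5 CPM and Krt8 from 14.4 and 16.5 to 31.1 and 34.6 CPM, while Krt18, the partner of Krt8, fell from 217 and 236 to 143 and 153 CPM. Of the basal pair, Krt5 rose 1.36-fold, from 8958 and 9150 to 12311 and 12315 CPM, and Krt14 was not called, at 11635, 13390, 11727 and 11666 CPM. Of the follicle keratins, Krt75 of the companion layer fell by 3.20 on the log2 scale and Krt32 of the cuticle rose by 2.75. Of the whole list of hair shaft and inner root sheath genes, 5 of 16 tested were higher and 3 lower (31.2% and 18.8%, against 20.8% and 22.2% of all genes). The call of Krt71, at 0.036, 0.0972, 0.393 and 0.522 CPM, was lost without any of the cKO libraries.

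**Figure D4:**
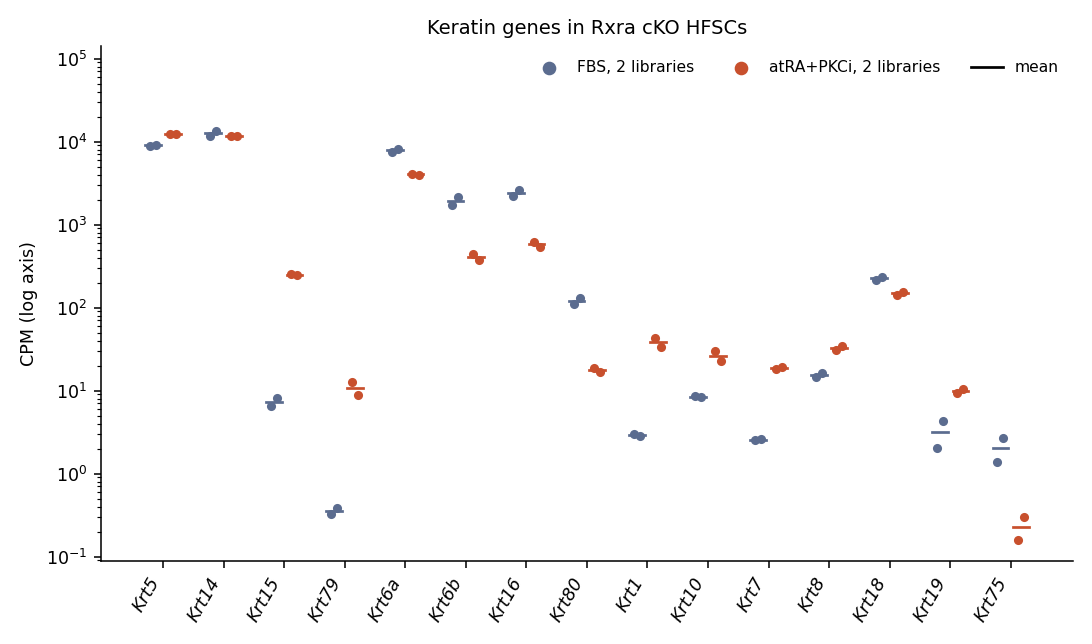
Levels of 15 keratin genes in CPM on a logarithmic axis in the 2 FBS and 2 atRA+PKCi libraries of Rxra cKO HFSCs, with bars at the means; heights are not comparable between genes. Krt15, Krt79, Krt1, Krt10 and Krt7 sit higher in atRA+PKCi, Krt6b, Krt16, Krt80 and Krt75 sit lower, and Krt14 points overlap.

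Transcription factors of the epidermis split, with 8 of 25 tested higher and 9 lower. The higher count was 5 without FBS replicate 1 or either atRA+PKCi library. Hopx fell from 234 and 284 to 29.7 and 25.4 CPM, 9.40-fold (log2 fold change -3.23, SE 0.13, edgeR adjusted p = 4.94e-07). Prdm1, the repressor BLIMP1, fell from 45.5 and 67.2 to 10.2 and 9.09 CPM, and Ovol1, a repressor of the basal state, from 41.7 and 47.5 to 16.1 and 15.3 CPM. Grhl3 and Klf4, activators of barrier genes, had log2 fold changes of -1.26 and -0.88. Barx2, a homeobox factor, rose from 12.4 and 13.7 to 41.8 and 39.5 CPM, and Pou2f3, a factor of the differentiating layers, from 0.503 and 0.389 to 2.44 and 2.57 CPM. Klf5, a readout of lineage plasticity in the study, lay at 101 and 96.5 CPM in FBS and at 100 and 94.8 CPM in atRA+PKCi. The difference was -0.02 on the log2 scale (SE 0.082, adjusted p = 0.862), and the media overlapped. The call of Pou3f1, at 0.827, 1.55, 2.54 and 2.38 CPM, was lost in 3 of 8 fits with a library left out.

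The other readout, Sox9, was at 70.1 and 74.9 CPM in FBS and at 88.4 and 92.1 CPM in atRA+PKCi. Its log2 fold change was 0.32 (SE 0.11) and missed the threshold (edgeR adjusted p = 0.0502), although the groups did not overlap. It passed in 8 of 15 alternative fits, among them the replicate block (adjusted p = 0.0131), with an adjusted p between 0.00229 and 0.199 over all 15. Across the list of HFSC identity genes, 9 of 30 tested were higher and 8 lower (30.0% and 26.7%, against 20.8% and 22.2% of all genes). Krt15 was far ahead of the rest. Ltbp2, a matrix protein that binds latent TGF-beta, rose from 1.51 and 1.62 to 12.9 and 13.3 CPM and Npnt, the bulge matrix protein nephronectin, from 1.44 and 1.00 to 4.50 and 5.25 CPM. Nfix and Nfib, factors of HFSC chromatin, rose by 1.37 and 0.69 on the log2 scale. Cd34, a surface marker of the mouse bulge, fell from 2.91 and 1.78 to 0.498 and 0.596 CPM. Bmp6, a ligand of stem cell quiescence, and Dkk3 had log2 fold changes of -1.70 and -0.98. Nfatc1, Tcf7l1 and Tbx1, other factors of the bulge, were not called (-0.78, 0.41 and 0.30).

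Adhesion to the basement membrane was lower in 16 of 24 tested genes and higher in 5, with a median log2 fold change of -0.54. Lama3 and Lamb3, chains of basement membrane laminin, fell together. Lama3 was at 2167, 2289, 441 and 453 CPM (log2 fold change -2.32, edgeR adjusted p = 4.13e-07) and Lamb3 at 989, 1049, 220 and 224 CPM. In each, both FBS libraries lay far above both atRA+PKCi libraries. Itga2, a collagen receptor, fell from 204 and 198 to 18.9 and 20.3 CPM, 10.3-fold, Itga3, a laminin receptor, 2.57-fold, and Itga6 and Itgb4, the hemidesmosome integrin, 2.43-fold and 1.89-fold. Fras1, a basement membrane protein, rose from 1.26 and 1.04 to 7.20 and 8.31 CPM, and Lamb1 and Dst rose by 0.45 each. The count of lower members was 10 without FBS replicate 2 or either atRA+PKCi library.

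Of cytokine and chemokine genes, 13 of 21 tested were lower and 3 higher (61.9% and 14.3%, against 22.2% and 20.8% of all genes). Cxcl3, a neutrophil attractant, was at 354, 340, 33.2 and 31.0 CPM (log2 fold change -3.43, SE 0.07, edgeR adjusted p = 3.37e-08), Il24 at 149, 162, 5.89 and 7.23 CPM and Csf3, the growth factor of granulocytes, at 104, 100, 10.2 and 10.1 CPM. Both FBS libraries exceeded both atRA+PKCi libraries severalfold. Il1a, Cxcl1 and Tslp fell 2.85-fold, 4.52-fold and 3.79-fold. Csf1, the macrophage growth factor, rose from 20.9 and 19.7 to 43.4 and 44.3 CPM, Cx3cl1 from 6.04 and 6.96 to 15.9 and 17.9 CPM and Ccl20 from 14.3 and 16.6 to 34.8 and 32.8 CPM. Of the EGF family, 8 of 12 tested were lower and 1 higher. Areg, amphiregulin, fell 7.8-fold, from 97.0 and 103 to 12.8 and 12.9 CPM, Nrg1, neuregulin, 6.08-fold and Ereg, epiregulin, 4.6-fold, while the receptor Egfr rose from 80.2 and 84.5 to 115 and 107 CPM. Of the wound list, Hmga2, a chromatin protein of proliferating cells, fell 11.8-fold, from 736 and 653 to 56.8 and 60.5 CPM.

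Of AP-1 and other immediate early genes, 8 of 28 were higher and 12 lower (28.6% and 42.9%, against 20.8% and 22.2% of all genes). Fosl1, the AP-1 subunit FRA1, fell from 65.5 and 62.6 to 13.9 and 13 CPM (log2 fold change -2.25, edgeR adjusted p = 6e-07). Fosb rose from 22 and 17.9 to 82.9 and 73.3 CPM, Fos from 70.3 and 65.1 to 147 and 133 CPM and Jun from 100 and 129 to 241 and 201 CPM. Egr1, a zinc finger factor of the same class, rose from 60.1 and 60.6 to 217 and 224 CPM and Myc from 69.5 and 67.8 to 114 and 116 CPM. Etv4, an ETS factor induced by ERK, fell from 47.0 and 42.7 to 4.45 and 6.07 CPM, and Etv5 and Dusp5, a phosphatase of ERK, had log2 fold changes of -1.35 and -1.36. Junb and Jund were not called. SRF and YAP targets were 6 higher and 6 lower of 17 tested (35.3% each). Thbs1 and Cyr61, matrix proteins induced by YAP, rose 4.20-fold and 3.82-fold, while Actb and Zyx, of the actin skeleton, fell 1.66-fold and 1.95-fold. Of the protein kinase C isoforms, which include the inhibitor's targets, 3 of 10 tested were higher and 3 lower (30.0% each). Prkca fell from 25.6 and 23.4 to 16.8 and 15.7 CPM and Prkci, an atypical isoform, rose by 0.40. Prkce, Prkcz and Prkd1 were also called but lost the call without at least 2 of the libraries.

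WNT pathway genes were higher in 13 of 27 tested (48.1%, against 20.8% of all genes) and lower in 5, with a median log2 fold change of 0.41. Axin2, a feedback target of beta-catenin, rose from 4.21 and 4.18 to 15.8 and 14.3 CPM (1.85, SE 0.14, edgeR adjusted p = 1.55e-05). Notum, which inactivates WNT proteins, rose from 0.288 and 0.324 to 1.70 and 1.79 CPM and Lgr4, a receptor for R-spondins, from 16.3 and 17 to 46.4 and 44.1 CPM. Fzd7, a WNT receptor, rose by 1.38. Wnt7a, a ligand of the epidermis, fell from 25.4 and 23.4 to 6.57 and 7.6 CPM, and Lgr6, another R-spondin receptor, from 9.24 and 11.0 to 7.18 and 6.0 CPM. Lef1 and Lgr5 were too low to test. Of BMP and TGF-beta genes, 6 of 24 tested were higher and 13 lower. Grem1, a BMP antagonist, fell from 3.24 and 3.17 to 0.498 and 0.298 CPM, and the BMP targets Id1 and Id3 had log2 fold changes of -0.71 and -1.06. The ligands Tgfb3 and Bmp7 rose, from 4.96 and 4.83 to 28.5 and 28.6 CPM and from 1.65 and 2.95 to 9.43 and 9.28 CPM. Of Hedgehog genes, 4 of 9 tested were higher and 1 lower. Gas1, a coreceptor, rose from 3.88 and 4.79 to 17.8 and 18.1 CPM and Gli2, a transcription factor, fell by 0.73, but the calls of Ptch1 and Boc were lost without FBS replicate 2 or without atRA+PKCi replicate 1, and the higher count was then 2. Of Notch genes, 4 of 11 tested were higher and 4 lower (36.4% each, against 20.8% and 22.2% of all genes). The higher count was smaller without any of the cKO libraries. The receptor Notch1 rose from 118 and 125 to 287 and 264 CPM, and Lfng, which modifies Notch, and Rbpj, its DNA-binding partner, had log2 fold changes of -1.17 and -0.80.

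Hox genes, which encode position along the body axis and include classical retinoic acid targets, rose in 17 of 22 tested (77.3%) and fell in none, with a median log2 fold change of 0.79. Hoxc8 was at 9.06, 8.49, 46.7 and 48.4 CPM, 5.42-fold higher (log2 fold change 2.44, SE 0.12, edgeR adjusted p = 1.7e-06). Hoxc5 was at 9.06, 8.97, 30.4 and 31.0 CPM and Hoxc6 at 10.1, 9.0, 23.1 and 26.7 CPM. From the other clusters, Hoxa5 rose 2.44-fold, Hoxa7 2.11-fold, Hoxb3 1.84-fold and Hoxb6 1.71-fold. No Hoxd gene passed the filter on low counts. The count was 12 or 13 when a cKO library was left out.

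Genes of stress and metabolism made up the remaining lists. Of the targets of NRF2, the regulator of antioxidant genes, 15 of 26 were lower and 3 higher. Gsta1, a glutathione transferase with close relatives, fell 45.6-fold, from 51.9 and 61.0 to 1.55 and 0.931 CPM, Gsta4 6.68-fold and Nqo1, a quinone reductase, from 62.9 and 59.4 to 18.3 and 15.9 CPM (log2 fold change -1.84, edgeR adjusted p = 9.47e-07). Gstm2 and Osgin1 rose 2.86-fold and 2.54-fold. Of ATF4 and amino acid genes, 9 of 22 were lower and 3 higher, with Slc7a11, the cystine transporter that NRF2 also drives, falling from 167 and 139 to 45.3 and 43.1 CPM, and the lower count was 4 without FBS replicate 1 or either atRA+PKCi library and the higher count 1 without FBS replicate 2 or atRA+PKCi replicate 1. Of glycolysis and hypoxia genes, 7 of 23 tested were lower and 4 higher (30.4% and 17.4%, against 22.2% and 20.8% of all genes). Vegfa, the angiogenic factor, fell 2.20-fold. The lower count was smallest without FBS replicate 2 or atRA+PKCi replicate 2, and the higher count without either atRA+PKCi library. Interferon-stimulated genes were higher in 12 of 27 tested (44.4%) and lower in 1, with a median of 1.02, and the higher count was 8 without FBS replicate 2 or atRA+PKCi replicate 2. Tap1, the peptide transporter of antigen presentation, rose from 4.75 and 5.96 to 22.9 and 23.8 CPM, whereas Isg15 was at 0.755, 0.583, 0.786 and 1.01 CPM and was not called. The lower member, Irf1, lost its call without atRA+PKCi replicate 1.

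The same medium comparison in wild-type HFSCs gave 4350 genes higher (27.2%) and 4249 lower (26.6%). Of the genes higher in Rxra cKO, 2247 were also higher in wild-type, which is 67.7% of the cKO calls and 51.7% of the wild-type calls. Of the lower genes, 2487 were lower in both, 70.2% and 58.5%. The interaction, which tests whether the log2 fold change differs between genotypes, was more positive in the cKO for 2117 genes (13.3%) and more negative for 1807 (11.3%). Among genes called the same way in both genotypes, 408 higher and 843 lower genes moved less in the cKO, and 71 and 128 moved more. The difference between the genotypes includes that between the mice and lines, with which it cannot be told apart.

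Krt15 had one of the large shortfalls. Its wild-type means were 4.20 CPM in FBS and 4503 CPM in atRA+PKCi, a log2 fold change of 10.07, and the interaction was -5.00 (edgeR adjusted p = 2.01e-06). Dhrs3 went from 7.21 to 187 CPM in wild-type (interaction -1.95) and Cyp26b1, which was not called in the cKO, from 24.5 to 71.0 CPM (interaction -1.69, adjusted p = 0.000325). Nrip1 also rose less in the cKO, with an interaction of -0.98. For Stra6 a difference was not detectable (-0.28, adjusted p = 0.146). The fold change of Rxra itself was 0.51 higher in the cKO (adjusted p = 0.0216), a call kept in 8 of 15 alternatives. Klf5 fell in wild-type from 143 to 82.7 CPM, with an interaction of 0.77 (adjusted p = 0.00179). Sox9 rose in wild-type from 93.2 to 165 CPM, and its interaction of -0.51 (adjusted p = 0.0483) was lost in 11 of 15 alternatives.

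The mitosis genes differed in the other sense, since 26 of 28 had a more negative log2 fold change in the cKO (background 11.3%), and 5 were higher and 9 lower in wild-type with a median of -0.14. Bub1 means in wild-type were 55.8 and 48.6 CPM, with an interaction of -1.30 (edgeR adjusted p = 7.61e-05), and Cenpe, a kinetochore motor, had log2 fold changes of 0.35 in wild-type and -1.26 in the cKO. The count was 24 to 26 under each of 14 alternative fits that keep the threshold. Of DNA replication genes, 20 of 32 were more negative, a count that was 10 without atRA+PKCi replicate 1 and 13 without FBS replicate 1 or atRA+PKCi replicate 2, and 6 with limma. Epidermal differentiation genes fell further in wild-type, with a median of -7.36, and 34 of 35 had a more positive interaction, Ivl being the exception with -0.92. Lce1a1, Lce1b and Klk5 had no count in wild-type atRA+PKCi, and the median was the same with them at their bounds. Of 22 Hox genes, 9 had a more negative log2 fold change in the cKO and 4 a more positive one (background 11.3% and 13.3%). In wild-type 17 were higher and 3 lower. Hoxc8, with a wild-type log2 fold change of 5.19, had an interaction of -2.75.

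**Figure D5:**
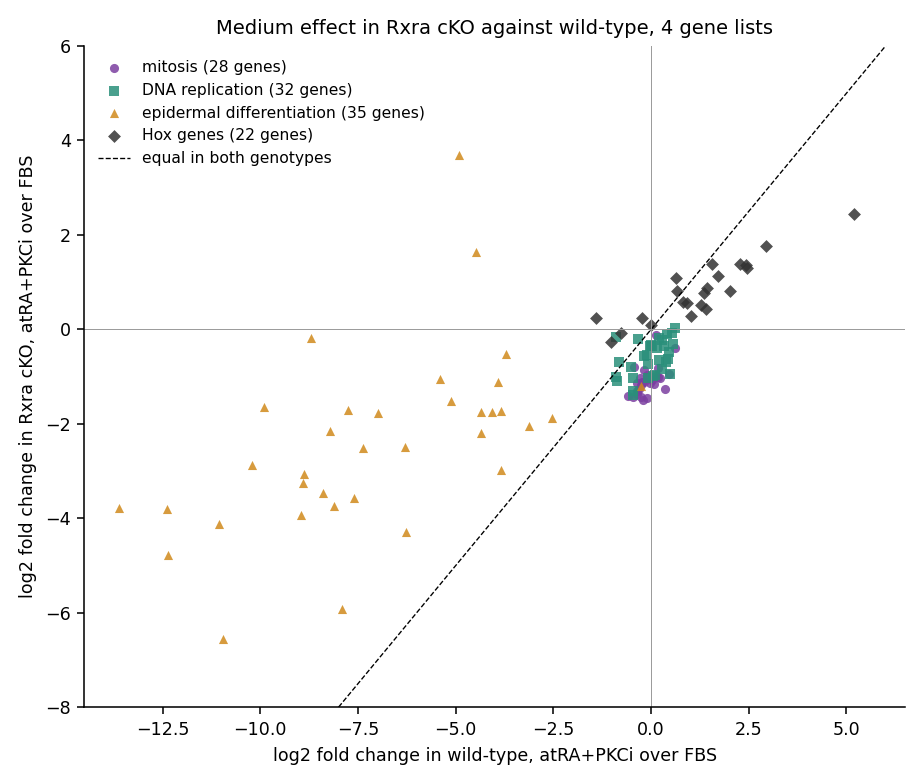
Log2 fold change, atRA+PKCi over FBS, in wild-type (horizontal axis) and in Rxra cKO (vertical axis) for 28 mitosis, 32 DNA replication, 35 epidermal differentiation and 22 Hox genes, with a dashed line where both are equal. Mitosis genes lie near 0 in wild-type (median -0.14) and below 0 in the cKO (median -1.12), and the differentiation genes lie left of the line, with Krt1 and Krt10 above 0.

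Some genes moved more in the cKO than in wild-type. Among genes averaging at least 5 CPM that rose in both genotypes, Slc15a2 had the largest excess in the cKO (interaction 4.84, edgeR adjusted p = 1.74e-06), but its wild-type level was already 34.5 CPM in FBS and 84.4 CPM in atRA+PKCi, against 33.8 and 33.7 CPM in cKO atRA+PKCi. The wide cKO difference thus came with a low FBS level. Fras1 also rose in both, with an interaction of 1.88. Cep55, a cytokinesis protein, fell from 20.6 and 13.2 to 3.27 and 1.45 CPM in the cKO and was at 13.5 and 12.6 CPM in wild-type. Upp1, uridine phosphorylase, fell 19.3-fold, from 26.6 and 27.7 to 1.20 and 1.6 CPM, with an interaction of -1.93. Prl2c5 and Clcf1 had interactions of -2.11 and -1.86. Acta2, which rose from 0.647 and 0.615 to 14.8 and 15.2 CPM in the cKO, was at 0.206 and 0.144 CPM in wild-type, and Axin2 was at 5.52 and 5.45 CPM there (interaction 1.87, adjusted p = 0.000299).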

How the data were processed

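RNA was sequenced from 8 libraries, 2 mice per genotype in each of 2 media, and groups followed the sample labels. The authors made the deposited estimated counts with salmon 1.4.0 and tximport against the mouse build mm10, and gene totals were rounded to whole numbers here. The authors also deposited a normalized signal table, made from the same counts, which was used only in an alternative fit. The single-cell files of the series were not used.

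Genes were filtered with filterByExpr, which left 15965 of 51906. Libraries were scaled by TMM and fitted with edgeR 4.0.16 (R 4.3.3) by quasi-likelihood with 4 group means over the 8 libraries, and p-values were Benjamini-Hochberg adjusted over all genes tested. The interaction is the log2 fold change in Rxra cKO minus that in wild-type. The SE was derived from the test, as the absolute log2 fold change divided by the square root of its F statistic. Totals were 25150265 to 35879777, and replicates of Rxra cKO correlated at 0.994 in FBS and 0.9955 in atRA+PKCi on the log scale. No pair agreed within sampling noise. With 2 mice per group, the spread behind the p-values was estimated over all 4 groups and shared between genes. The main fit did not use the mouse as a block. Counts were also simulated with only 200 genes changed and no other difference between the groups. Over 15456 genes fitted, 66.3% of genes with a log2 change of 1 and 85.9% with a change of 2 were recovered. There were 13 false calls. The real comparison called 43.0% of genes, so these rates need not hold for it.

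The members and gene lists were chosen with earlier results of these data known. Genes were named by a rule: the 12 called genes with the highest and the 12 with the lowest log2 fold change among those averaging at least 5 CPM, with at least 4 counts in each medium and no overlap; up to 3 called members of each list in each direction and all retinoid genes; the 6 largest interactions with opposite signs in the genotypes and the 6 largest excesses in Rxra cKO; and Rxra, Sox9 and Klf5. Some genes that this rule takes are not reported here. Further list members, and the promoter motifs, were chosen after their values were seen. The labels give the same mouse number in both media, so a number marks 1 animal. Deviations of same-numbered libraries correlated at -0.00219 in Rxra cKO and 0.112 in wild-type, and a fit with the replicate block was an alternative. Other alternatives were DESeq2 1.42.0, its size factors in edgeR, no filter, the 4 Rxra cKO libraries alone, limma 3.58.1 on log2(signal + 1) or log2(signal + 0.5), a stricter threshold, and leaving out each library. Coordinates are those of GENCODE M21 and promoter windows those of RefSeq. Bounds for genes without a count used 3 counts over the group and cover counting error only.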

Additional observations from a re-analysis of the deposited data

Results flagged for a closer look

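The medium effect was called in opposite directions in the genotypes, with the interaction called too, for 180 genes higher and 183 lower in Rxra cKO. The 5 described here had large differences among such genes averaging at least 5 CPM over the 8 libraries. For Krt1 the log2 fold change was 3.70 in Rxra cKO and -4.91 in wild-type, a difference of 8.61, and for Krt10 it was 1.64 and -4.47, a difference of 6.11. In FBS, Krt10 was at 8.59 and 8.36 CPM in Rxra cKO and at a mean of 140 CPM in wild-type, so the starting levels also differed. The difference was 5.72 for the chemokine gene Ccl20, 5.27 for Igfbp2, which encodes an IGF-binding protein and 4.96 for Clec2e, a lectin gene. Igfbp2 was at 9.85, 11.0, 83.7 and 75.5 CPM in Rxra cKO and had a log2 fold change of -2.35 in wild-type. Each of the 5 interactions was called in all alternatives run.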

How the results depend on the processing

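The counts of called genes kept within 1.5 times of the reported ones with DESeq2, other size factors, no filter and the replicate block. Requiring both a change of more than 1 on the log2 scale and an adjusted p below 0.01 left 817 genes higher and 1041 lower, with 694 more positive and 440 more negative interactions. With limma the more positive interactions numbered 1336 at pseudocount 1 and 1299 at 0.5, and the more negative ones 975 and 939. Leaving out single libraries gave 2133 to 3724 higher and 2326 to 3890 lower genes, and 1375 to 2484 more positive and 961 to 1878 more negative interactions. The lowest values came without atRA+PKCi replicate 2 for higher genes and more positive interactions, and without atRA+PKCi replicate 1 for the other pair; more negative interactions numbered 1095 without FBS replicate 1 and 1017 without atRA+PKCi replicate 2, all of Rxra cKO. These fits hold fewer libraries. Under the replicate block the called genes numbered 3197 higher and 3474 lower, Sox9 became called (edgeR adjusted p = 0.0131), and the medium effect of Aldh1a1, Crabp1, Krt71, Bmp4 and Vldlr was lost (0.0665, 0.0592, 0.0616, 0.0634 and 0.0522). Among named interactions, those of Dgat1, Krt7, Cd34, Notum, Ereg and Pdk1 were lost and those of Prl8a1, Plin2, Krt8 and Cth gained with the block. Over the medium effects of single named genes, 2860 alternatives kept the side of the threshold, 210 lost the call and 18 gained it, and no called effect changed sign; uncalled ones did, such as Rdh10 (-0.45 to 0.2) and Klf5 (-0.06 to 0.04). Low counts limit Rarb, Aldh1a1, Krt71 and other genes below about 1 CPM.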
